A study of Rattus norvegicus with 8 samples.

Results

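The subunits of the oxidative phosphorylation machinery were followed in the hippocampus of 2-month-old rats that had received fluoxetine or vehicle as pups. They were taken as every probe that is not a control and whose gene name, without its suffix, begins with Ndufa, Ndufb, Ndufc, Ndufs or Ndufv, is Sdha to Sdhd, or begins with Uqcr, Cox4 to Cox8 or Atp5. This gave 94 probes of 65 gene names among the 15207 probes and 12553 gene names of the array. Complex I had 34 probes of 27 names, complex II 10 of 4, complex III 7 of 5, complex IV 17 of 12 and complex V 22 of 13. The remaining 4 probes share the naming pattern but are no subunits: Ndufaf1 assembles complex I, Cox7a2l joins respiratory complexes into supercomplexes, Atp5s (now Dmac2l) is a factor coupled to ATP synthase, and Cox4nb (now Emc8) belongs to a membrane protein complex of the endoplasmic reticulum.

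RNA from whole hippocampi, labelled with the dye Cy3, was measured on single-colour Agilent arrays. In the PNFLX group, rat pups were given fluoxetine, an antidepressant that blocks the reuptake of serotonin, at 10 mg/kg. In the control group, pups were given the vehicle, a sucrose solution of 5%. Treatment ran from postnatal day 2 to day 21 by the treatment protocol, while the sample descriptions give an end day that runs from 21 to 24 over controls 1 to 4 and from 25 to 28 over PNFLX 1 to 4. Each group had 4 samples, numbered without a statement that each came from a separate animal, so p-values measure the spread between these samples, and the 4 arrays per group limit the precision. Strain and sex are not given in the sources used here.

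Oxidative phosphorylation takes place in the inner mitochondrial membrane. Complexes I and II pass electrons from NADH and succinate to ubiquinone, complex III passes them to cytochrome c, complex IV passes them to oxygen, and complex V uses the proton gradient built by complexes I, III and IV to make ATP. Neurons draw most of their ATP from this pathway, chiefly to restore ion gradients after synaptic activity. A small core of subunits is encoded by mitochondrial DNA and all others, including every subunit measured here, by the nucleus.

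Each probe is a DNA strand of 60 bases, and the 94 probes carried 73 different sequences. The following sequences are shown because the results turn on them: the probe of Cox6a1, which alone passed the test, the probe with the largest difference (Ndufa7), probes of the tissue-restricted isoforms Cox4i2 and Cox6a2, the Sdhc sequence spotted 5 times, and pairs that show what a probe can and cannot tell. They are written 5′ to 3′ as the files give them, with positions on rn4. In the Atp5h lines, capitals mark the 38 bases of the first probe that are the reverse complement of the second, so the second reads the opposite strand. In the lines for Cox6c and Cox6c1, capitals mark the 7 bases that differ within the 48 aligned bases.
Cox6a1 (chr12:42396413-42396472, + strand): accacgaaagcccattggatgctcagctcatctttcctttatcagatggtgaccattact
Ndufa7 (chr7:16334437-16334496, + strand): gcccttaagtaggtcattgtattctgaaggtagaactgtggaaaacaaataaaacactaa
Cox4i2 (chr3:143019685-143019744, + strand): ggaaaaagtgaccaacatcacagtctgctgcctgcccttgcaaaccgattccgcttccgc
Cox6a2 (chr1:187614813-187614872, - strand): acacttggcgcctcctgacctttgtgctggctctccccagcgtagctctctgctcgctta
Sdhc (chr13:87203494-87203553, - strand): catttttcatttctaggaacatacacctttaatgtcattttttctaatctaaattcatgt
Atp5h (chr10:105508904-105509093, - strand): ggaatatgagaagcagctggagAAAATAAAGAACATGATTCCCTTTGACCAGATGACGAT
Atp5h, designed on an expressed sequence tag (chr10:105508882-105508941, + strand): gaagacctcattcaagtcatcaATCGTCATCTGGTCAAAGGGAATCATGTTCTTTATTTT
Cox6c (chr7:71486617-71495146, - strand): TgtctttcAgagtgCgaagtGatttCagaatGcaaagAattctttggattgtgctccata
Cox6c1 (chr19:54402994-54403053, - strand): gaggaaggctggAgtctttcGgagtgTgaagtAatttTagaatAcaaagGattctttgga

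All 4 subunit probes designed on expressed sequence tags, 2 of Atp5h and 1 each of Uqcrc1 and Cox8h (now Cox8b), lay on the strand opposite to the RefSeq-based probe of the same gene name. Cox6c1 is now listed as a pseudogene, Cox6c-ps1, and 41 of the 48 aligned bases are identical in both probes; how much of its signal comes from Cox6c transcripts was not tested. Besides these, 3 other probes, of Ndufa11, Uqcrh and Cox7a2l, lay on the strand opposite to their gene. There the probe strand is that on rn4 and the gene strand that on another assembly, and which transcripts these probes read was not tested. No exon annotation of rn4 was used here, so the probes are placed by chromosome and strand only.

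Levels are on a log2 scale, with each array's own 75th percentile of the processed signal set to 0. Of the 94 probes, 93 were tested, each bright enough over background on 4 or more of the 8 arrays. The exception was the probe named Cox6b, well above background on 1 PNFLX array only. The 75th percentile ran from 654 to 880 in control and from 873 to 941 in PNFLX. All arrays lay on 1 slide, where each group filled a row of its own. Position on the slide and treatment therefore cannot be told apart. The labelled tissue could be checked against 12 probes of hippocampal neuron markers, of which 11 were well above background on all 8 arrays; 6 were higher and 6 lower in PNFLX. Of the other marker probes tested, those of oligodendrocytes were lower in 14 of 14, of choroid plexus in 4 of 4, of microglia in 11 of 14, of astrocytes in 8 of 12 and of endothelium in 8 of 11, while those of erythrocytes were higher in 5 of 5 and of meninges in 10 of 13, by sign alone and with none called. These are counts of probes: the 14 of oligodendrocytes read 10 genes, and Mbp, Mobp, Cldn11 and Eraf, among others, count on more than 1 probe each. The mean log2 level of the oligodendrocyte probes ran from 1.63 to 2.09 in control and from 1.36 to 1.73 in PNFLX, and that of the meningeal probes from -0.502 to 0.287 and from -0.182 to 0.937. That of microglia ran from -0.713 to -0.242 and from -0.724 to -0.557, of astrocytes from 1.12 to 1.39 and from 1.18 to 1.36, and of endothelium from -1.73 to -1.40 and from -1.89 to -1.37. For choroid plexus it ran from -4.72 to 0.319 and from -4.17 to -2.16, and for erythrocytes from -2.57 to -2.27 and from -2.54 to -1.67. The part of these cell types in the respiratory values was not tested. Since whole tissue was used, fewer cells of a type and less RNA per cell cannot be told apart.

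PNFLX against control asks which transcripts differ in the young adult hippocampus after early fluoxetine. In limma, with Benjamini-Hochberg adjustment over all 11600 probes tested, 1 of the 93 probes passed an adjusted p of 0.05, Cox6a1, which was lower in PNFLX in processed values and was saturated on 7 of the 8 arrays; over all probes 78 passed, or 0.672%. At an unadjusted p under 0.05 there were 12 of the 93, where all probes gave 12.5%. The groups did not overlap for 13 of the 93, 7 higher and 6 lower in PNFLX, beside 10.7% of all probes, 4.33% higher and 6.41% lower. By sign alone 44 were higher and 49 lower, and 54.5% of all probes were lower. The share of respiratory probes called or separated was thus near the background of the array.

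Complex by complex the medians of the log2 differences lay close to 0. They were -0.05 for the 34 probes of complex I (16 higher, 18 lower), 0.04 for the 10 of complex II (6 and 4), -0.13 for the 7 of complex III (2 and 5), -0.03 for the 16 tested of complex IV (8 and 8) and -0.07 for the 22 of complex V (9 and 13). The median over all 93 was -0.01 and that of all 11600 probes -0.03. The median size of a difference, whatever its sign, was 0.19 for respiratory probes and 0.22 for all probes. For comparison, 101 probes of cytosolic ribosomal proteins had a median of -0.11, 45 of proteasome subunits -0.03 and 29 tested probes of glycolytic enzymes -0.10. The sign of the small respiratory medians depended on the processing: normexp background correction turned the median of all 93 to 0.22 while the median of all probes went to -0.38, and without scaling between arrays the respiratory median was 0.28 and that of all probes 0.26.

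**Figure D1:**
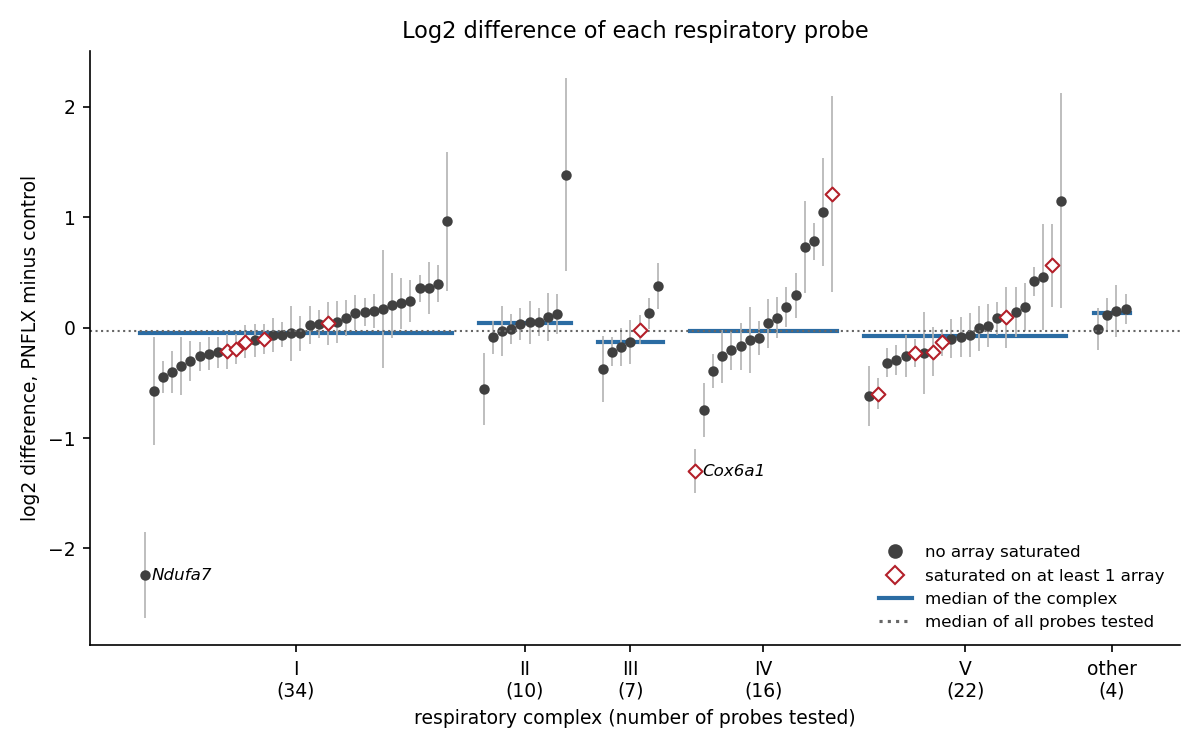
Log2 difference (PNFLX minus control, vertical axis) of the 93 respiratory probes tested, sorted within complexes I to V and the probes that are no subunits (other); bars are the moderated standard error and open diamonds mark probes saturated on at least 1 array. The complex medians (blue) lie between -0.13 and 0.04, near the median of all probes (dotted), with Ndufa7 as the lowest point; Cox6a1 is marked as saturated.

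The samples of a group also differed from each other across the respiratory probes as a whole. Taken as the deviation from each probe's own mean over the arrays, the median over the 93 probes was 0.15, -0.07, 0.12 and -0.0005 in controls 1 to 4 and -0.08, -0.12, -0.02 and 0.15 in PNFLX 1 to 4. Control 1 and PNFLX 4 were the highest samples of their groups, and the groups overlapped. Over all probes the same medians were 0.10, -0.03, 0.04 and 0.07 in controls and -0.01, -0.05, 0.08 and -0.06 in PNFLX, so that control 1 was the highest and control 2 the lowest control there too, while PNFLX 4 was the lowest PNFLX sample. Ribosomal proteins (0.17, -0.06, 0.13 and 0.02), proteasome subunits (0.14, -0.06, 0.08 and -0.04) and glycolytic enzymes (0.23, -0.08, 0.12 and 0.06) likewise had control 1 highest and control 2 lowest. In PNFLX 4 the median was 0.14 for proteasome subunits, -0.0034 for ribosomal proteins and -0.20 for glycolytic enzymes. Among the respiratory complexes it was 0.37 for complex II, 0.23 for complex IV, 0.12 for complex I, 0.05 for complex V and -0.02 for complex III. Of the 86 respiratory probes with a value on every array, 29 had their highest value in PNFLX 4 and 24 in control 1. No test was made of these medians.

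Complex I, the NADH dehydrogenase, had no probe past the threshold. Its largest difference was that of Ndufa7, an accessory subunit, whose values were 1.77, 1.09, 1.34 and 1.09 in controls 1 to 4 and -1.98, -0.53, -1.11 and -0.07 in PNFLX 1 to 4. All PNFLX samples lay below all controls, and the PNFLX samples were spread more widely. The log2 difference was -2.24 (SE 0.39, a 4.73-fold lower signal), which missed the threshold in limma (adjusted p = 0.0538; exact permutation test, two-sided p = 0.0286, the smallest that 4 against 4 samples can give). The spot lay in row 190 of 192, close to the lower end of the array, where the median of all 277 tested probes in rows 188 to 192 was -0.79. After subtraction of row and column medians the difference of Ndufa7 was -1.31 (SE 0.71, adjusted p = 0.587). The only other respiratory probe of these rows, Ndufb7, was at 0.22.

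Among the other subunits of complex I, the groups of Ndufa2 and Ndufs6 did not overlap, in opposite directions. Ndufa2, an accessory subunit, was at 3.22, 2.83, 3.21 and 3.01 in controls and 2.5, 2.48, 2.70 and 2.81 in PNFLX (log2 difference -0.45, SE 0.15; adjusted p = 0.275 in limma), and with normexp background correction its sign turned, to 0.24, while it was -0.15 without scaling between arrays and -0.07 without the detrending division, in which the scanner software divides each spot by a factor for its place on the array. Ndufs6, an accessory subunit read in row 174, was at 3.81, 3.41, 3.70 and 3.77 in controls and 3.85, 4.00, 4.00 and 4.43 in PNFLX (log2 difference 0.40, SE 0.17; adjusted p = 0.382 in limma). The lowest PNFLX sample of Ndufs6 was only just above the highest control, and without the detrending division the difference was -0.05. Exact permutation tests (two-sided) gave p = 0.0286 for both, and neither passed over all probes.

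The other probes of complex I described here lay between -0.57 and 0.96. Both ends of that range came from a single sample. Ndufb2 stood at 1.97 in control 1 and between 4.77 and 5.25 in the 7 other samples, and Ndufv3l (now Ndufv3) at 0.79 in PNFLX 1 and between 2.73 and 3.23 elsewhere. Ndufv1, which carries the NADH-binding site and was chosen after its values were seen, was low in PNFLX 4 on both of its spots, at 1.72 and 1.56 against 2.11 to 2.49 in the 3 other PNFLX samples. Its differences were -0.30 (SE 0.18) and -0.40 (SE 0.19), and neither passed.

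Complex II, succinate dehydrogenase, links the citric acid cycle to the respiratory chain, and its 4 genes gave no call. Sdha, the catalytic subunit that binds flavin, was at 0.05 (SE 0.13), and the 2 spots of the iron-sulfur subunit Sdhb were at -0.01 (SE 0.14) and 0.03 (SE 0.14). Sdhc, a membrane anchor, was measured 5 times with the sequence shown above. Its spots in rows 21, 28, 61 and 138 gave differences of -0.03, 0.09, 0.12 and 0.05, whereas the spot in row 18 gave 1.39 (SE 0.88). That last value came from control 1, where the spot in row 18 read -1.09 and the spots in rows 28, 61 and 138 read 3.21, 3.16 and 3.22; the spot in row 21 was flagged as an outlier there and left out. Averaging the 5 spots, an alternative chosen after seeing the data, gave 0.38 (SE 0.27), still carried by that 1 spot. All 5 spots agreed on PNFLX 4, which read 3.65 to 3.79 where PNFLX 1 to 3 read 2.83 to 3.32. The second anchor, Sdhd, was at -0.09 (SE 0.15) in row 65 and at -0.55 (SE 0.33) on a spot of the same sequence in row 4, whose sign turned without the division (0.75) and with normexp (1.07).

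**Figure D2:**
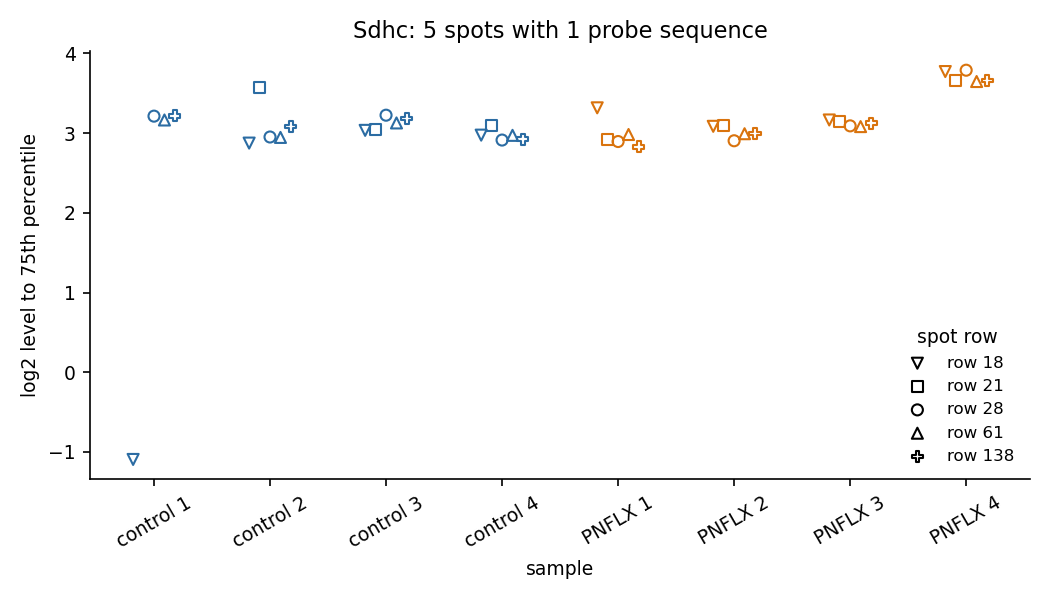
Log2 level relative to the array's 75th percentile (vertical axis) of the 5 spots that carry the Sdhc sequence, in each of the 8 samples (control blue, PNFLX orange), with 1 symbol per spot row. The spots mostly lie close together within a sample, and PNFLX 4 is highest on every spot. The spot in row 18 of control 1 lies apart at -1.09. In control 2 the spot in row 21 lies at 3.56 and the others at 2.87 to 3.08.

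Complex III, the cytochrome bc1 complex, had no call and no probe whose groups did not overlap. Uqcrb, a ubiquinone-binding subunit, was at -0.18 (SE 0.17) and -0.22 (SE 0.13) on its 2 probes, Uqcrh, the hinge protein, at -0.02 (SE 0.13), Uqcrc2, a core protein, at -0.13 (SE 0.20), and the Rieske iron-sulfur protein Uqcrfs1 at 0.13 (SE 0.14). The core protein Uqcrc1 was at -0.38 (SE 0.30) on its RefSeq-based probe, with 1.97, 1.26, 1.40 and 1.25 in controls and 1.79, 1.14, 1.09 and 0.37 in PNFLX. Its probe on the opposite strand gave 0.38 (SE 0.21). Cyc1, a cytochrome within complex III, and Cycs, the cytochrome c that takes electrons from it, lie outside the naming rule. The 2 probes of Cyc1 were at -0.25 and 0.35 and those of Cycs at 0.11 and 0.13, and none passed.

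Complex IV, cytochrome c oxidase, held the only called probe. Cox6a1, the widely expressed isoform of subunit 6A, was at 7.22, 7.87, 6.93 and 7.22 in controls and 6.0, 6.02, 6.08 and 5.95 in PNFLX (log2 difference -1.30, SE 0.20; adjusted p = 0.0334 in limma; exact permutation test, two-sided p = 0.0286). All controls lay above all PNFLX samples, and the PNFLX values were nearly equal. The spot, in row 21, was saturated on all 4 control arrays and on 3 of the 4 PNFLX arrays, and only PNFLX 1 gave a reading below saturation. The difference in processed values is therefore no measure of how far the transcript differed, and no fold is given. Before the software's correction for position, its mean brightness was 61934, 64401, 64861 and 65163 in controls 1 to 4, 50874 in PNFLX 1 and 65535, the highest value on any array, in PNFLX 2 to 4. The brightness of the groups therefore overlapped. The detrending factor by which the scanner software then divided this spot was 0.586, 0.312, 0.697 and 0.666 in controls and 0.860, 1.07, 1.11 and 1.14 in PNFLX. Without that division, an alternative chosen after seeing the data, the log2 difference was -0.37 (SE 0.17, limma adjusted p = 0.289), and with normexp background correction, which starts from the undivided brightness, it was -0.04 (SE 0.33, adjusted p = 0.945). The call held when control 2 or control 3 was left out and was lost when control 1, control 4 or any PNFLX sample was (limma adjusted p from 0.0525 to 0.104), with differences from -1.43 to -1.11 over these fits.

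**Figure D3:**
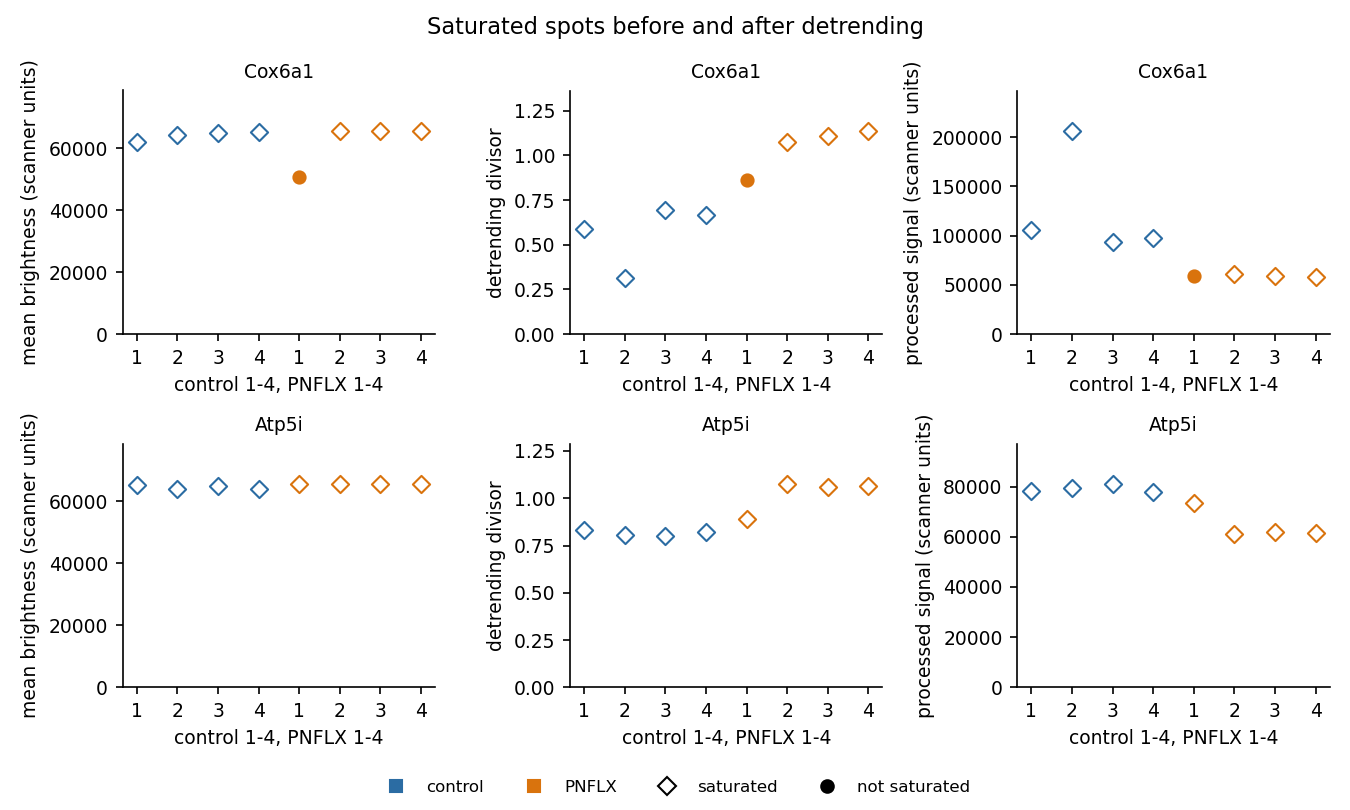
Mean brightness, detrending divisor and processed signal (vertical axes) of the Cox6a1 spot in row 21 and the Atp5i spot in row 17 in controls 1 to 4 (blue) and PNFLX 1 to 4 (orange); open diamonds are saturated spots. Brightness is near or at the ceiling of 65535 in both groups, apart from PNFLX 1 for Cox6a1 at 50874, while the divisors are lower in all controls than in all PNFLX samples.

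The muscle and heart isoform of the same subunit, Cox6a2, was read by 2 spots of 1 sequence and was lower in PNFLX on both without passing. In row 171 it was at -0.49, -0.70, -0.34 and -0.21 in controls and -0.78, -1.84, -0.94 and -1.16 in PNFLX (log2 difference -0.75, SE 0.24; adjusted p = 0.262 in limma). In row 97 it was at -0.61, -1.11, -0.67 and -0.94 in controls and -1.16, -1.38, -1.07 and -1.30 in PNFLX (log2 difference -0.40, SE 0.16; adjusted p = 0.357 in limma), with 1 PNFLX sample above the lowest control. The average of both spots gave -0.57 (SE 0.18) with no overlap between groups. Of 13 tested probes of skeletal and heart muscle markers 10 were also lower and 3 higher, and none was called. Their mean log2 level ran from -0.996 to -0.684 in control and from -1.32 to -0.836 in PNFLX. The list includes Pvalb (0.04), which is not specific to muscle, and counts Mb, Tnni2, Tnnc2 and Myh6 on more than 1 probe each. The part of muscle cells in the values of Cox6a2 was not tested.

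Cox4i2, the isoform of subunit 4 known from lung and from low oxygen, was higher in PNFLX on both of its spots without passing. In row 11 it was at -0.69, -0.39, -0.75 and -0.09 in controls and 0.41, 0.25, 0.24 and 0.31 in PNFLX (log2 difference 0.78, SE 0.17; adjusted p = 0.0996 in limma). In row 8 it was at -2.07, -0.16, -0.23 and -0.15 in controls and 0.70, 0.29 and 0.19 in PNFLX 1 to 3, with the spot of PNFLX 4 flagged as an outlier and left out (log2 difference 1.04, SE 0.49, adjusted p = 0.445). Without control 1 that difference was 0.57 (SE 0.19). Every PNFLX value lay above every control on both spots. Without scaling between arrays the spot in row 11 passed (1.08, adjusted p = 0.0330). Both spots lie near the upper end of the array, and no Cox4i2 spot lies in the inner rows. Over all probes in rows 6 to 20 the median difference was -0.09, and 0.51 without the detrending division. The common isoform Cox4i1, also on 2 spots of 1 sequence, was at -0.21 (SE 0.18) in row 17 and 0.04 (SE 0.22) in row 178.

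Among the other subunits of complex IV, Cox5a was at 0.19 (SE 0.18), Cox7a2 at 0.09 (SE 0.18) and Cox7b at 0.29 (SE 0.20), while the 2 probes of Cox5b were at -0.09 and -0.17. Cox6c was at 1.79 in control 3 and between 5.67 and 6.32 in the other samples, which set its difference of 1.21 (SE 0.88). Cox8h (now Cox8b), the muscle isoform of subunit 8, was at -0.26 (SE 0.24) and, on the opposite strand, at -0.11 (SE 0.30). None of them passed. No probe found by the naming rule was named Cox7a1, Cox6b2 or Cox8a.

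**Figure D4:**
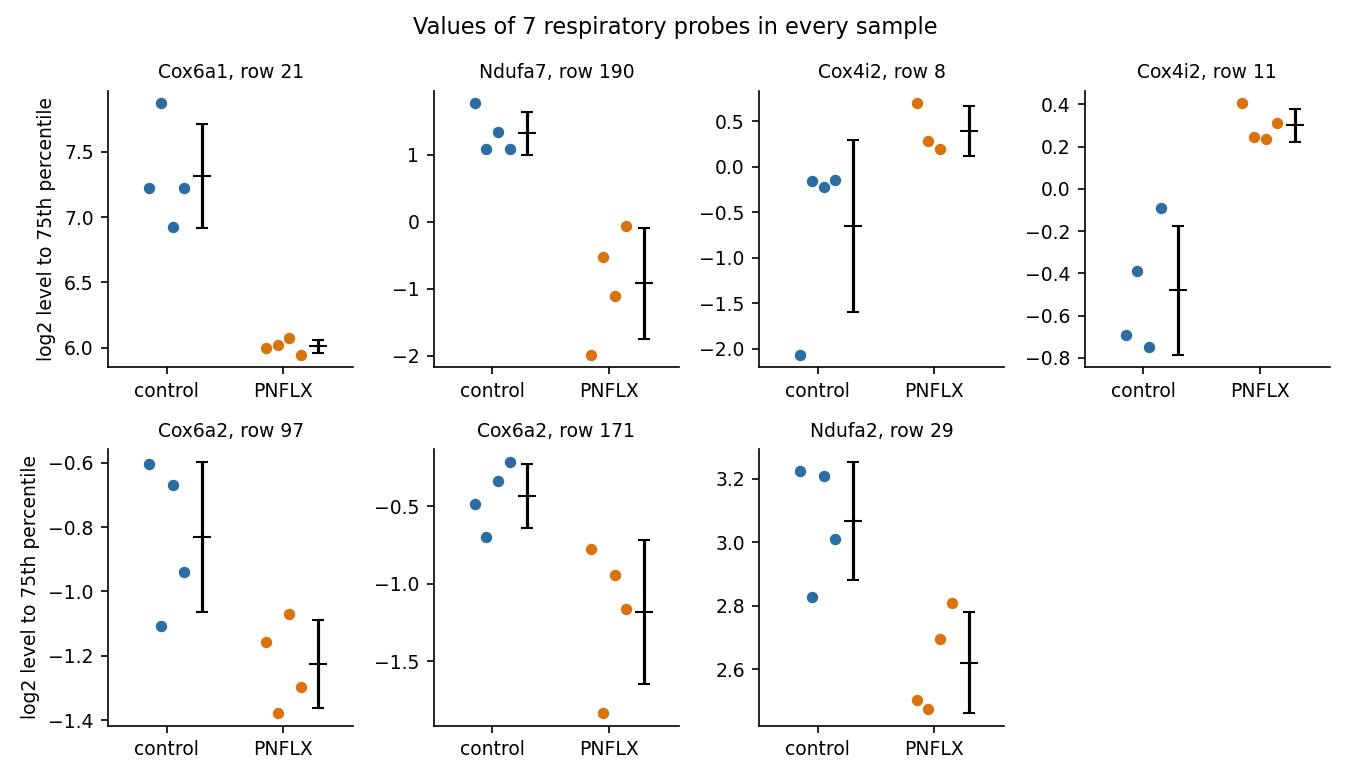
Log2 level relative to the array's 75th percentile (vertical axes, a scale for each panel) of 7 respiratory probes in each control (blue) and PNFLX sample (orange), with mean and SD beside the points; n = 4 except for Cox4i2 in row 8 of PNFLX, with n = 3. The groups do not overlap in any panel except Cox6a2 in row 97.

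Complex V, ATP synthase, had 22 probes and no call. Atp5i (now Atp5me), a subunit of the membrane part, was at 6.79, 6.50, 6.72 and 6.89 in controls and 6.31, 6.02, 6.14 and 6.04 in PNFLX (log2 difference -0.60, SE 0.14; adjusted p = 0.115 in limma), with all controls above all PNFLX samples. This spot, in row 17, was saturated on all 8 arrays, with brightness of 63938 to 65320 in controls and 65535 in every PNFLX sample, so no fold is given. Its divisor was 0.803 to 0.833 in controls and 0.893 to 1.07 in PNFLX, and without the division the difference was -0.29. With normexp background correction it was 0.04.

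The proton-carrying ring of complex V is built from 1 identical protein encoded by 3 genes. Atp5g1 (now Atp5mc1) was at 0.14 (SE 0.23). Atp5g2 (Atp5mc2) was at 4.42, 4.02, 4.18 and 4.12 in controls and 3.80, 3.82, 3.88 and 3.97 in PNFLX on its probe in row 36 (log2 difference -0.32, SE 0.13; adjusted p = 0.374 in limma), without overlap, and at -0.06 (SE 0.20) on another probe in row 109. The first of these turned to 0.27 with normexp background correction, and was -0.06 without the division and -0.02 without scaling between arrays. Atp5g3 (Atp5mc3) was at 2.5, 2.38 and 2.36 in controls 1 to 3 and 2.81, 2.75, 2.94 and 2.84 in PNFLX in row 19, with the spot of control 4 flagged as an outlier and left out (log2 difference 0.42, SE 0.13; adjusted p = 0.261 in limma), and at 0.02 (SE 0.19) on a spot of the same sequence in row 94. The groups of Atp5g3 did not overlap in row 19 but did in row 94, and the gap between these spots of 1 sequence was not tested.

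Atp5a1, of the catalytic head, was at -0.10 (SE 0.17), and Atp5c1, of the central rotor, at 0.19 (SE 0.22). Atp5b, which carries the catalytic sites, was at 0.46 (SE 0.48) on a spot in row 4 where 3 of the 4 controls were flagged and left out. It enters the counts of groups that did not overlap with 1 control value. Atp5d was at 0.09 and -0.08 on its 2 spots and Atp5j at -0.01 and -0.29. Atp5h (now Atp5pd), of the stalk, was at -0.62 (SE 0.27) in row 19, with the sign turned without the division (0.27) and with normexp (0.60), and at 1.15 (SE 0.97) in row 42 with the same sequence, where control 1 read 0.43 and the other controls 4.83 to 5.13. Its 2 probes on the opposite strand were at -0.26 (SE 0.19) and -0.23 (SE 0.37). Atp5o, the oligomycin sensitivity protein, was at -0.22 (SE 0.23) in row 65 and 0.57 (SE 0.37) in row 132. The probes that are no subunits were at 0.15 (Atp5s), -0.01 (Cox4nb), 0.17 (Cox7a2l) and 0.11 (Ndufaf1), and none passed.

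Saturation was common among the respiratory probes. In 14 of the 94, or 14.9%, the spot was saturated on at least 1 array, against 123 of all 15207 probes, or 0.809%. Ndufb8, Atp5e and Atp5i were saturated on all 8 arrays. Cox6a1 and both spots of Ndufb4 were saturated on 7, both spots of Atp5f1 on 6 and Cox6c on 3. Ndufb3, 1 of the 2 spots of Ndufb9, Uqcrh and both spots of Atp5o were saturated on 1 array, which was PNFLX 4 each time. Counted over spots, there were 26 saturated readings in controls and 39 in PNFLX. Among all probes of the array, 60, 72, 71 and 49 were saturated in controls 1 to 4. In PNFLX 1 to 4 it was 82, 82, 77 and 103, so PNFLX 4 had the most. Apart from Cox6a1, Atp5i, Cox6c and Atp5o in row 132, the saturated probes had differences between -0.23 and 0.09. For Ndufb8, Atp5e, Ndufb4 and Atp5f1, saturated on 6 or more arrays, these values are no measure of how far the transcripts differed. They also enter the medians of their complexes.

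Where a spot lay on the array moved with its difference. The divisor had a median of 0.547 in controls and 0.918 in PNFLX over rows 1 to 5, of 1.10 and 1.08 over rows 21 to 172, and of 0.985 and 0.528 over rows 188 to 192. In rows 21 to 172, which held 73 of the tested respiratory probes, the median size of their difference was 0.14, and the groups did not overlap for 5 (6.85%), beside 8.69% of all probes in those rows. In rows 1 to 20 it was 6 of 12 respiratory probes, beside 20.5% of all probes there, and in rows 173 to 192 it was 2 of 8, beside 17.7%. The 6 were both spots of Cox4i2, which carry 1 sequence, Sdhc in row 18, Atp5g3 in row 19, Atp5b and Atp5i. Of these, Atp5b had 1 control value left and Atp5i was saturated on all 8 arrays. Sdhc and Atp5g3 did overlap on their other spots of the same sequence. Of the 78 probes called over the whole array, 33 lay in rows 1 to 5 and 20 in rows 188 to 192. The median difference of all probes was 0.75 in rows 1 to 5 but -0.09 in rows 6 to 20. Likewise it was -0.79 in rows 188 to 192 but 0.19 in rows 173 to 187. Without the division, 5 respiratory probes passed among 422 of all probes (3.64%): Ndufa7 (-3.32), Ndufb7 (-0.78) and Cox6a2 in row 171 (-1.19) were lower, and Cox4i2 in row 11 (1.25) and Atp5g3 in row 19 (0.96) higher. All 5 spots lay in rows 11 to 19 or 171 to 190.

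**Figure D5:**
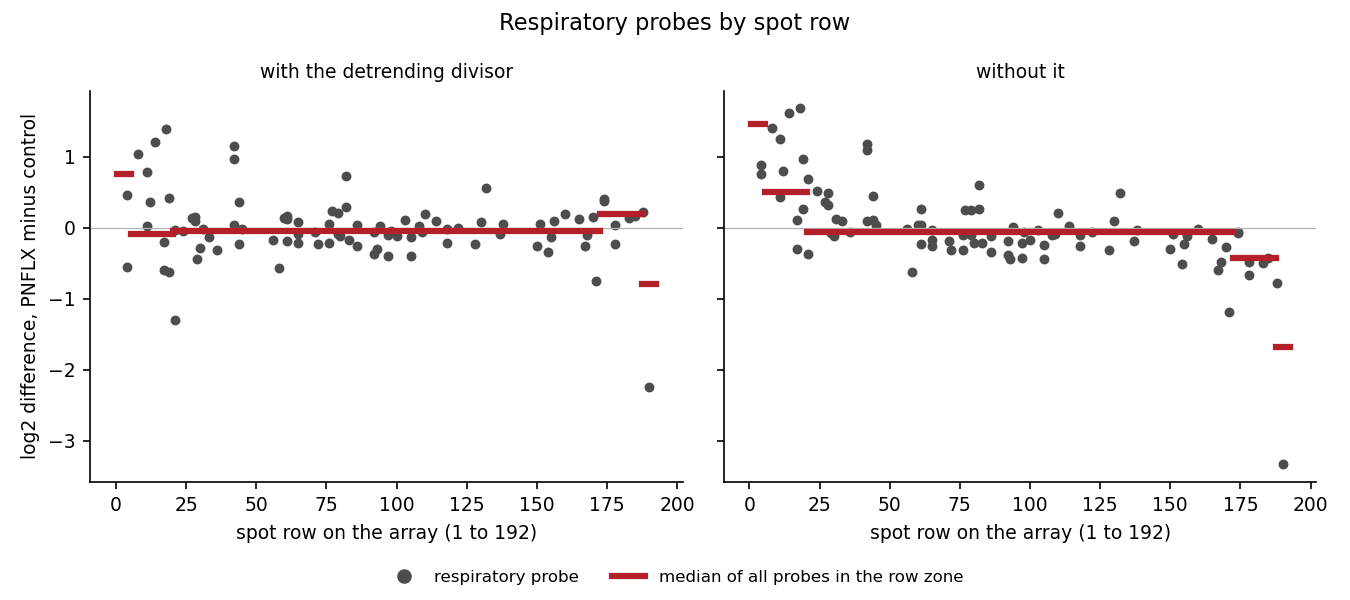
Log2 difference (PNFLX minus control, vertical axis) of the 93 respiratory probes against spot row (horizontal axis), with the software's detrending divisor (left) and without it (right); red bars are the median of all probes in rows 1 to 5, 6 to 20, 21 to 172, 173 to 187 and 188 to 192. With the divisor the medians of rows 1 to 5 and 188 to 192 are 0.75 and -0.79, and without it 1.45 and -1.67, while the inner rows stay at -0.05 and -0.06.

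Repeated sequences showed how far single spots could be trusted. In the 73 sequences, 18 were on several spots, 39 spots in all. Pairs of spots with 1 sequence on 1 array differed by 0.11 in the median (207 comparisons), less than the median spread of 0.21 between samples of a group (SD), and less than the 0.18 found over all repeated sequences kept. In 10 of the 207 they differed by more than 1 log2 unit. The 207 comparisons came from 27 pairs, many of them among the 5 spots of Sdhc. Also included are the spots of Ndufb4 and Atp5f1, saturated on 6 or more arrays, where the ceiling limits how far the brightness can differ. When the spots of a sequence were averaged, 33 of the 72 tested respiratory sequences were higher and 39 lower, with a median of -0.02, and Cox6a1 was again the only one to pass (adjusted p = 0.0338). The groups did not overlap for 10 of the 72, or 13.9%, beside 10.6% of all sequences.

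Genes around the respiratory chain that are not among the 94 probes gave 2 calls, beside 0.672% of all probes tested, and both came from spot row 2. In rows 1 to 5, 33 of all 267 tested probes were called and their median difference was 0.75, and without the first and last 5 rows no probe of the array passed in limma (1261 at an unadjusted p under 0.05). Among 4 tested complex I assembly factors Acad9, an acyl-CoA dehydrogenase that assembles the complex, was higher (1.88, SE 0.23, limma adjusted p = 0.0130), and RGD1359380 (now Timmdc1) in row 188 was at -1.66 (SE 0.58). Of 16 probes for the transcriptional control of respiration, Ppargc1a, the coactivator of mitochondrial biogenesis, was called higher (limma adjusted p = 0.0130). It was well above background on all 4 PNFLX arrays and on 1 control array, so it met the filter through the group where it was high and no size is given. The others were above 0 for 10 probes and below it for 5 without passing, with Polg, the mitochondrial DNA polymerase, at -0.24 (SE 0.14), Nrf1 at -0.28 (SE 0.25) and Tfam at 0.22 and 0.20. Of the 2 probes for complex II assembly, RGD1309216 was at 0.15 and Acn9 at 0.06. Bcs1l, which assembles complex III, was at -0.21 (SE 0.17), and Usmg5, a small protein of ATP synthase, at 0.08 (SE 0.13). Of 6 probes of 5 complex IV assembly genes 3 were above and 3 below 0, with the copper chaperone Cox17 at -0.22 (SE 0.14) and 0.11 (SE 0.17) on its 2 probes and Lrpprc at -0.12 (SE 0.13). Of 9 probes for ATP export 3 were above and 6 below 0, with Vdac3 at -0.66 (SE 0.29, row 189) and the phosphate carrier Slc25a3 at 0.25 (SE 0.13). Of 26 probes of the citric acid cycle and pyruvate dehydrogenase 15 were above and 11 below 0, with citrate synthase (Cs) at -0.41 (SE 0.15) and -0.09 (SE 0.13) on its 2 probes and Got2 at -0.49 (SE 0.22). Of 29 glycolytic probes 6 were above and 23 below 0, with Gpi at -0.57 (SE 0.16) and -0.42 (SE 0.23) and Pgam2 at -0.82 (SE 0.30) and -0.02 (SE 0.35). Apart from Acad9 and Ppargc1a, no probe of these lists passed.

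Promoters of the subunits were searched for motifs known from nuclear genes of respiration, and 25 of the 52 found held at least 1 of them (48.1%, against 9.45% of all promoters), as a description with no test. RefSeq (GRCr8) gave the 300 bases around the start, 250 before and 50 after, for 52 of the 61 subunit genes. For these, 1 promoter per gene was taken, while the 33469 promoters were used without such a choice. The shares are therefore over sets that were built differently. The motif of NRF1, a factor that drives nuclear respiratory genes, searched on both strands as GCGCA, any base, then GCGC, was in 13 of the 52 (25%) and in 4.25% of 33469 promoters. That of YY1 (AAGATGGCG) was in 8 (15.4% against 1.73%), that of ETS factors such as GABPA (CCGGAAGT) in 5 (9.62% against 3.81%) and that of the estrogen-related receptors (TCAAGGTCA) in 2 (3.85% against 0.433%). These promoters were also richer in G and C, with a median of 57.2% against 51.7%. The 35 tested probes of genes with at least 1 motif had a median log2 difference of -0.06, and the 39 of genes with none 0.03. Ndufs6 is shown as an example with motifs of both NRF1 and YY1 in capitals, the second lying after the start. Its array probe is placed on chromosome 2 of rn4, whereas this promoter is on chromosome 1 of GRCr8.
Ndufs6 promoter (GRCr8, chr1:31797150-31797449, + strand): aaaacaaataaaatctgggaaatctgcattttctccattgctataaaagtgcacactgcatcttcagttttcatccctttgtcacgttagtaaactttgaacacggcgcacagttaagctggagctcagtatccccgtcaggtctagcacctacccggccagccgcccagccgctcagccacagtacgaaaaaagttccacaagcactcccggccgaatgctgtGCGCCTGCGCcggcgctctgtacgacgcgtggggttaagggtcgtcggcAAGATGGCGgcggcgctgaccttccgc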

How the data were processed

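The array intensity values (processed signal, background-subtracted signal, mean brightness and local background) and the spot flags come, per the file headers, from Agilent's Feature Extraction software. The deposited detrending column is a ratio: the processed signal equalled the background-subtracted signal divided by it. The authors also deposited a log2 table, which equalled the values used here, once probes were centred on their medians, to within 0.00242; its column medians were 0.06, -0.05, 0.04 and 0.04 for controls and -0.04, -0.07, 0.10 and -0.13 for PNFLX.

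The processed signal was scaled to each array's 75th percentile and taken to log2. Outlier-flagged spots were dropped (9 respiratory spots, on 7 probes), and a probe was kept if well above background on 4 or more of the 8 arrays. The test was limma 3.58.1 (R 4.3.3) with empirical Bayes (Benjamini-Hochberg over all kept probes, threshold 0.05); SE is moderated. The fit was tested on simulated data. Single probes were also compared by exact permutation over all assignments (70, or 35 or 5 where spots were dropped). Different probes of a gene were kept apart. One gene that the naming rule covers is counted in the totals and not reported here. Of 15207 probes, 14144 matched a RefSeq gene (GRCr8, names only); probe positions, on rn4, come from the files.

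Genes were named by rule: called probes, the 4 of smallest p in each complex, isoform pairs, saturated probes, every probe of a gene so named, and up to 2 genes of smallest p in each further list. Genes mentioned beyond these (the remaining subunits, Ndufv1, Cycs, Tfam and Nrf1) were added to complete the account. The members and lists were chosen with earlier results of these data known.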

Additional observations from a re-analysis of the deposited data

Results flagged for a closer look

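In 11 of 111 groups of 4 samples examined among the named respiratory probes and the complex medians, 1 sample lay far from the other 3 by Dixon's test. The nominal rate of that test is about 1 in 20. The groups were not independent, since several spots share 1 sequence, and the rate over all probes of the array was not computed. The count is therefore no measure of an excess among respiratory probes. Control 1 was the distant sample in 4 of the 11 groups and PNFLX 4 in 3. Control 1 was low for Sdhc in row 18 (-1.09, others 2.87 to 3.03), Atp5h in row 42 (0.43, others 4.83 to 5.13) and Cox4i2 in row 8 (-2.07, others -0.23 to -0.15), and high for Ndufaf1 (-2.06, others -2.33 to -2.29). Control 2 was low for Cox4nb (1.03, others 1.65 to 1.77) and control 3 for Cox6c (1.79, others 5.67 to 6.21). PNFLX 4 was high for Sdhc in row 61 (3.65, others 2.98 to 3.08) and Sdhd in row 4 (4.59, others 4.22 to 4.28), and low for the Atp5h probe on the opposite strand in row 72 (-4.09, others -3.22 to -3.08). PNFLX 2 was low for Atp5o in row 65 (5.03, others 5.80 to 5.95), and PNFLX 3 high for the saturated Ndufb4 spot in row 61 (6.10, others 5.91 to 5.93). The low values of control 1 for Sdhc and Atp5h were absent on spots of the same sequence elsewhere on that array, whereas the high value of PNFLX 4 for Sdhc was present on all 5 spots.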

How the results depend on the processing

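Over all probes, calls numbered 78; they were 50 with normexp (14 higher, 36 lower, against 43 and 35), 143 without scaling (120 higher, 23 lower), 46 with no filter on dim probes, 47 when all 8 arrays had to be well above background, 24 after subtraction of row and column medians, 0 without the first and last 5 spot rows (limma; 1261 at an unadjusted p under 0.05), 48 with the brightest probe per gene name, 422 without multiplicative detrending and 13 with the replicate block. Leaving out 1 sample gave 33 (without control 4) to 104 (without PNFLX 3). Respiratory calls (1) were 2 with quantile normalization (Cox6a1 and Ndufa7), 5 without multiplicative detrending, and in limma 0 with no filter, without saturated probes, after the row and column subtraction, without the end rows and with the replicate block (9, 10, 8, 11 and 9 respiratory probes at an unadjusted p under 0.05); leaving out 1 sample gave 0 to 1. With normexp and without scaling there was 1 respiratory call each, Ndufa7 (-2.65) and Cox4i2 in row 11 in place of Cox6a1. Cox6a1 was kept without control 2 or 3 and lost without control 1 or 4 or any PNFLX sample (adjusted p = 0.0525 to 0.104), and its adjusted p ran from 0.0128 to 0.945 over all alternatives. That of Ndufa7 ran from 0.0174 to 0.587, and Ndufa7 passed without PNFLX 4. Of the named probes, chosen in part for small p, 11 had an exact permutation p under 0.05 (groups did not overlap for 10.7% of all probes), and 6 with median scaling or after the row and column subtraction; leaving out 1 sample gave 5 to 11. The respiratory median was 0.22 with normexp and 0.28 without scaling; for complexes I to V it was 0.14, 0.39, 0.15, 0.13 and 0.27 with normexp and 0.25, 0.34, 0.17, 0.27 and 0.22 without scaling, and complex I was at -0.18 without multiplicative detrending. Leaving out 1 sample, the median of complex V ran from -0.17 (without control 2) to -0.0034 (without control 4). Among the 52 named probes tested, 23 changed sign with normexp and 12 without multiplicative detrending, and the cause was not tested; leaving out the scaling shifts the differences of all probes without a dropped spot by the same amount. Deviations of same-numbered samples correlated by 0.01, 0.08, 0.09 and 0.02, though for 3 of the 4 numbers the best match was the sample of the same number. The numbers were not taken as pairs because the labels state no pairing. Whether same-numbered samples share a factor was not tested, and with the replicate block the calls were 13 over all probes and 0 among respiratory probes. Averaging spots of 1 sequence and omitting the detrending were chosen after seeing the data. Saturation limits the brightest probes, and dim probes rest on signals near background.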
